A study of Homo sapiens with 4 samples.

Results

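The genes described here encode the constitutive subunits of the proteasome, the protease that degrades ubiquitin-tagged proteins. They were chosen by name as the genes called PSMA, PSMB, PSMC or PSMD with a number, and the inducible subunits PSMB8, PSMB9 and PSMB10 were left out. The rule gave 36 genes of the 36602 in the series. OVCAR5, an established human ovarian carcinoma cell line, had been cultured with supernatant collected from tumor cells grown together with T cells. The labels list 24 conditions, which combine 6 supernatant levels with 4 exposure times: no supernatant ("Unstimulated in vitro"), undiluted supernatant (SN), or supernatant diluted to 1/5, 1/25, 1/125 or 1/625, each for 2, 6, 12 or 24 h. Each condition was 1 culture of the same line, and all were pooled after labelling with hashtags, the antibody-borne oligonucleotides that mark a cell's culture of origin, and single cells were then captured in droplets for 3′ RNA sequencing.

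The proteasome has a barrel-shaped core particle, built from rings of alpha subunits (PSMA genes) around rings of beta subunits (PSMB genes), and a regulatory particle that caps it. The regulatory particle has a base, whose ATPases unfold the substrate (PSMC genes, with PSMD1, PSMD2 and PSMD4), and a lid that removes ubiquitin (the other PSMD genes, with PSMD14 as the deubiquitinase). The beta subunits PSMB5, PSMB6 and PSMB7 carry the proteolytic sites, and in cells exposed to interferon gamma they can be replaced by PSMB8, PSMB9 and PSMB10 to form the immunoproteasome, which favours peptides for presentation on MHC class I. PSMD5, PSMD9 and PSMD10 encode chaperones that assist assembly of the base and are treated as a group of their own.

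A cell was assigned to the pair of hashtags with its highest tag counts, and 24 pairs were in use. Which pair marks which condition is not given in the sources used here, so no level below is tied to a dose or a time. The pairs are separate samples, named by their tags (HTO3/HTO9), and are not replicates, so values are given with intervals for counting error and without tests between conditions. The pairs held 137 to 272 cells and between 1863154 and 3904112 UMIs (unique molecular identifiers, each standing for 1 captured RNA molecule). Levels are counts in each 1000000 UMIs of a pair (CPM), in which 3 counts, the limit that a count of 0 allows, came to 0.768 to 1.61 CPM. All 8 epithelial markers were detected, at 1889 to 3737 CPM summed, while none of 8 T cell markers reached 50 UMIs over all pairs, and CD3E, CD3G, CD2 and PTPRC were at 0. HTO3/HTO9 and HTO5/HTO8 were extreme among the pairs. Their cells had the fewest UMIs (medians of 9389 and 10714), with 11934 in the next pair, HTO6/HTO9, and 14795 in the highest. They also had the highest mitochondrial shares (13.8% and 12.8%), with 12.2% in the next pair, HTO4/HTO9, and 8.67% in the lowest. Within the pairs, 128 cells with 10 or more UMIs of KRT81, a hair keratin, stood apart from the other 5170 and are described below.

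Stretches of promoter are shown first for an ISRE-like motif, in interferon-regulated proteasome genes and in the constitutive members that hold it, since the levels of both are compared below. Sequences 250 bases upstream of the annotated start came from RefSeq on GRCh38.p14, with 37 windows for 31 of the 36 genes; PSMA7, PSMB1, PSMB6, PSMB7 and PSMD4 had none. An ISRE-like motif, GAAANNGAAA on either strand, resembles the element bound by interferon regulatory factors. It was found upstream of 2 of the 31 members, PSMA4 and PSMB4, or 6.45%, against 3.71% of 27305 genes. Among the interferon-regulated proteasome genes it was found for PSMB10 and for PSME2, which encodes part of an alternative cap. It was not found for PSMB8, PSMB9 or PSME1. The capitals mark the motif, and each sequence reads 5′ to 3′ on the strand of the gene. The stretches lie at chr16:67936851-67936891 (PSMB10, minus strand), chr14:24146611-24146658 (PSME2, minus strand), chr1:151399485-151399534 (PSMB4, plus strand) and chr15:78540155-78540194 (PSMA4, plus strand).
PSMB10: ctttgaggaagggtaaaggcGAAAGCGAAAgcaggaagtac
PSME2: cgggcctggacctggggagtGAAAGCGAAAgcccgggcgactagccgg
PSMB4: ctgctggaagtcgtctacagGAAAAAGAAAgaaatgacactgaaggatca
PSMA4: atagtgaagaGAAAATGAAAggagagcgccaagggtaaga

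The motif ended 12 bases before the start in PSMB10 and 19 bases before it in PSME2, but 59 bases before it in PSMB4 and 231 bases before it in PSMA4.

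An ARE-like motif, TGACNNNGC on either strand, resembles the element bound by NFE2L1 and NFE2L2, which are known to activate proteasome subunit genes. It was found for 7 of 31 members (PSMA4, PSMB3, PSMC5, PSMD3, PSMD12, PSMD5 and PSMD9), or 22.6%, against 13.2% of all genes, and these lie in every subunit group. It is shown for 4 members of different groups, at chr15:78540640-78540688 (PSMA4, plus strand, upstream of a second start), chr17:38752617-38752665 (PSMB3, plus strand), chr17:63827644-63827692 (PSMC5, plus strand) and chr17:67366714-67366762 (PSMD12, minus strand). In PSMC5 the motif lies on the opposite strand, so that its reverse complement is in capitals.
PSMA4: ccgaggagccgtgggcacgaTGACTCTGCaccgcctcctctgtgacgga
PSMB3: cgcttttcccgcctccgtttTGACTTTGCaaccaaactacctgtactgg
PSMC5: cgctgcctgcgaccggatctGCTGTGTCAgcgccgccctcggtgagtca
PSMD12: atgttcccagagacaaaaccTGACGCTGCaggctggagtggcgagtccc

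CCAAT, searched on both strands, was found for 16 of 31 members, or 51.6%, against 37.0% of all genes. None of these motifs was found upstream of PSMA6, the member with the widest range of levels below, in either of its windows. The 250 bases before its first start, chr14:35292067-35292316 on the plus strand, are shown without capitals for that reason. A motif match is a description of the letters and shows no binding.
PSMA6: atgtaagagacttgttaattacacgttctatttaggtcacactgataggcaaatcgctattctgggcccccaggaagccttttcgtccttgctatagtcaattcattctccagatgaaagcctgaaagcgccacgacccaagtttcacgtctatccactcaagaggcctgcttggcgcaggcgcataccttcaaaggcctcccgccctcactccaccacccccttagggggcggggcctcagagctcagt

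As a sum, the constitutive subunit genes were abundant in every pair and differed far less between pairs than the inducible ones. Together they made up 1.06% of all UMIs. Their sum was lowest in HTO4/HTO8, at 9601 CPM, and highest in HTO5/HTO9, at 11833 CPM, which is 1.23 times as much, while the sum of PSMB8, PSMB9 and PSMB10 ran from 178 to 1688 CPM, or 9.46-fold. The groups within this total did not move together. Core alpha and beta sums were highest in HTO4/HTO9, with 1502 CPM of inducible subunits. Base and lid sums were lowest in HTO3/HTO9 and HTO5/HTO8, with 1688 and 1130 CPM of inducible subunits. Single members could range more widely than the total: PSMA6 varied 3.16-fold, beside 3.68-fold for the inducible PSMB10.

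Of the 36 genes, 34 had a mean of at least 20 CPM. The other two, PSMA8, a testis-specific alpha subunit (chromosome 18), and PSMB11, the beta subunit of thymic epithelium (chromosome 14), had 0 of 73107924 UMIs, which allows at most 0.0410 CPM over all pairs. The widest range was that of PSMA6 and the narrowest that of PSMC2. The highest and lowest pair of a gene were picked by level, which raises their ratio even under counting error alone. The intervals below do not allow for this. Range was taken as the difference of log2(CPM + 10) between a gene's highest and lowest pair. It reached 1.5-fold for 17 of the 34 members, against 72.6% of the 5767 genes at this level, and 2-fold for 3 members (PSMA6, PSMD2 and PSMA4), against 26.1% of genes. The count at 2-fold was 1 without HTO3/HTO9, and 6 with a pseudocount of 1 in place of 10; the count at 1.5-fold was 10 without HTO3/HTO9 and HTO5/HTO8, and 10 with a pseudocount of 50. The median range was 1.5-fold for members and 1.67-fold for all genes. A range of about this size can come partly from counting: measured against counting error, the variance between pairs was a median of 6.10 times the Poisson expectation for members and 3.88 times for all genes, and it was 46.0 for core alpha, 8.65 for core beta, 4.75 for base, 4.29 for lid and 1.25 for chaperone genes. At the same fold difference this measure grows with a gene's UMIs, so its order over groups partly follows abundance. Core alpha means were 219 to 1054 CPM and chaperone means 24.9 to 81.1 CPM. The counts of UMIs are not scaled by transcript length, so levels of different genes compare captured molecules at the 3′ end. Levels may also miss reads that could be assigned to pseudogenes, since GENCODE 29 names 28 pseudogenes after 9 of the members and none was among the counted genes.

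**Figure D1:**
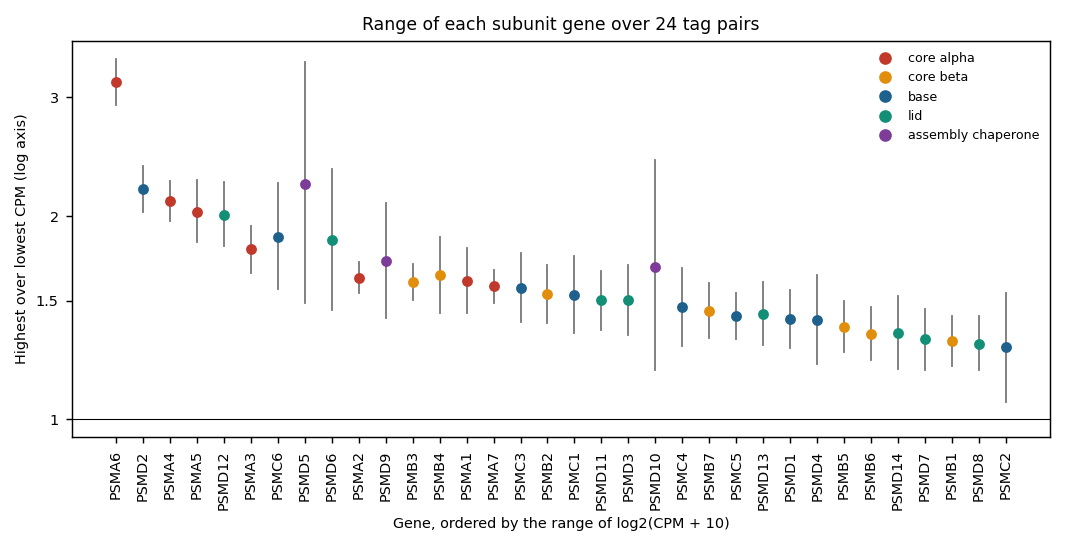
Highest over lowest CPM of each of 34 subunit genes over 24 tag pairs (log axis), coloured by subunit group and ordered by the range of log2(CPM + 10), with bars for the 95% interval of counting error. PSMA6 stands at 3.16 above all other genes, 4 of the 6 widest genes are core alpha genes, and the bars are longest for the low-level chaperone genes PSMD5 and PSMD10.

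All 7 core alpha genes ranged at least 1.5-fold. PSMA6 (ENSG00000100902, chromosome 14: 35278633 to 35317493) encodes an alpha subunit of the core ring. It ran from 272 CPM in HTO1/HTO10 through a median of 413 to 859 CPM in HTO3/HTO9, or 3.16-fold (95% interval of counting error 2.92 to 3.42). The next highest pair, HTO4/HTO9, held 705 CPM, and the ratio was 2.59 without HTO3/HTO9. PSMA4 (chromosome 15: 78540405 to 78552419) ran from 374 CPM in HTO2/HTO10 through a median of 493 to 789 CPM in HTO3/HTO9, or 2.11-fold (1.97 to 2.26). The 9 pairs with the lowest inducible level also had the 9 lowest levels of PSMA4, all at or below 403 CPM. PSMA5, the alpha gene with the lowest mean (219 CPM), ran from 154 to 313 CPM, or 2.03-fold (1.83 to 2.26), with its highest level in HTO5/HTO9.

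PSMA7 was the only alpha gene with its lowest level in HTO3/HTO9 or HTO5/HTO8. It had the highest mean of all members, 1054 CPM, and was the most abundant member in 23 of 24 pairs. In the other one, HTO3/HTO9, PSMA2 (915 CPM), PSMA6 (859 CPM) and PSMA4 (789 CPM) stood above it. The level of PSMA7 ran from 781 CPM in HTO3/HTO9 through a median of 1074 to 1230 CPM in HTO7/HTO10, or 1.57-fold (1.49 to 1.66). It was thus lowest in the pair where PSMA6, PSMA4 and PSMA1 were highest. The order of the 34 members by level nevertheless differed little between pairs, with Spearman rho to the order of the means from 0.940 in HTO3/HTO9 to 0.996.

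PSMA3 (chromosome 14: 58244831 to 58272012) ran from 342 to 611 CPM, or 1.79-fold (1.65 to 1.94). This gene had the largest difference between single cells of all members. Within pairs, its variance over cells was 3.22 times the Poisson expectation, against a median of 1.19 for members. The 128 cells with 10 or more KRT81 UMIs held 1834 CPM of PSMA3, and the other cells 414 CPM, or 4.43-fold (4.29 to 4.57). PSMA3 was higher in the KRT81 cells in 20 of the 20 pairs with at least 3 of them, and without these cells its variance ratio was 1.26. Whether reads of PSMA3 were kept apart from those of its antisense neighbour PSMA3-AS1 is not known, because the strand setting of the counting is not given in the sources used here.

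Other members differed in the KRT81 cells as well. The KRT81 cells were 2.42% of the assigned cells, with 0 to 10 in a pair. They were deeper than the other cells (medians of 17991 and 13152 UMIs) with a lower mitochondrial share (5.64% and 10.6%). Only 22 cells had between 5 and 14 KRT81 UMIs, near the threshold. In all, 5 of 34 members were 2-fold or more apart between the KRT81 cells and the rest, against 23.3% of all genes. This comparison was not matched for level, and low counts in the KRT81 cells widen such ratios. PSMD10, a base chaperone also known as gankyrin, stood at 84.6 CPM against 24.7, or 3.43-fold (2.95 to 3.98). PSMB3 stood at 290 CPM against 659 (0.44, interval 0.408 to 0.475), PSMC5 at 238 against 541 (0.44, interval 0.404 to 0.478) and PSMD13 at 121 against 243 (0.497, interval 0.440 to 0.559), and each was lower in 20 of 20 pairs. Lid genes summed to 1364 CPM in the KRT81 cells and 1914 CPM in the others, base genes to 1830 and 2374 CPM, core beta genes to 2228 and 2463 CPM, and core alpha genes to 4638 and 3698 CPM. The inducible subunits summed to 327 and 690 CPM, the 14 proliferation genes to 2360 and 3002 CPM, and the interferon gamma genes to 2987 and 4615 CPM; their part in these differences was not tested. Leaving these cells out changed the range of PSMA3 from 1.79 to 1.69, and its r with the inducible level, described below, from 0.38 to 0.67.

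Core beta genes moved less than alpha genes, with 3 of 7 ranging at least 1.5-fold and none 2-fold. PSMB3, the most abundant of them, ran from 528 CPM in HTO1/HTO10 through a median of 641 to 844 CPM in HTO4/HTO9, or 1.60-fold (1.5 to 1.70). PSMB4, the least abundant, ran from 112 CPM in HTO2/HTO10 to 184 CPM in HTO4/HTO9, or 1.64-fold (1.44 to 1.86). PSMB1 ran from 346 to 452 CPM, or 1.31-fold (1.20 to 1.42), which was among the 4 narrowest ranges. The summed beta level was 2196 to 2883 CPM and the summed alpha level 3117 to 4647 CPM, and both were highest in HTO4/HTO9.

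**Figure D2:**
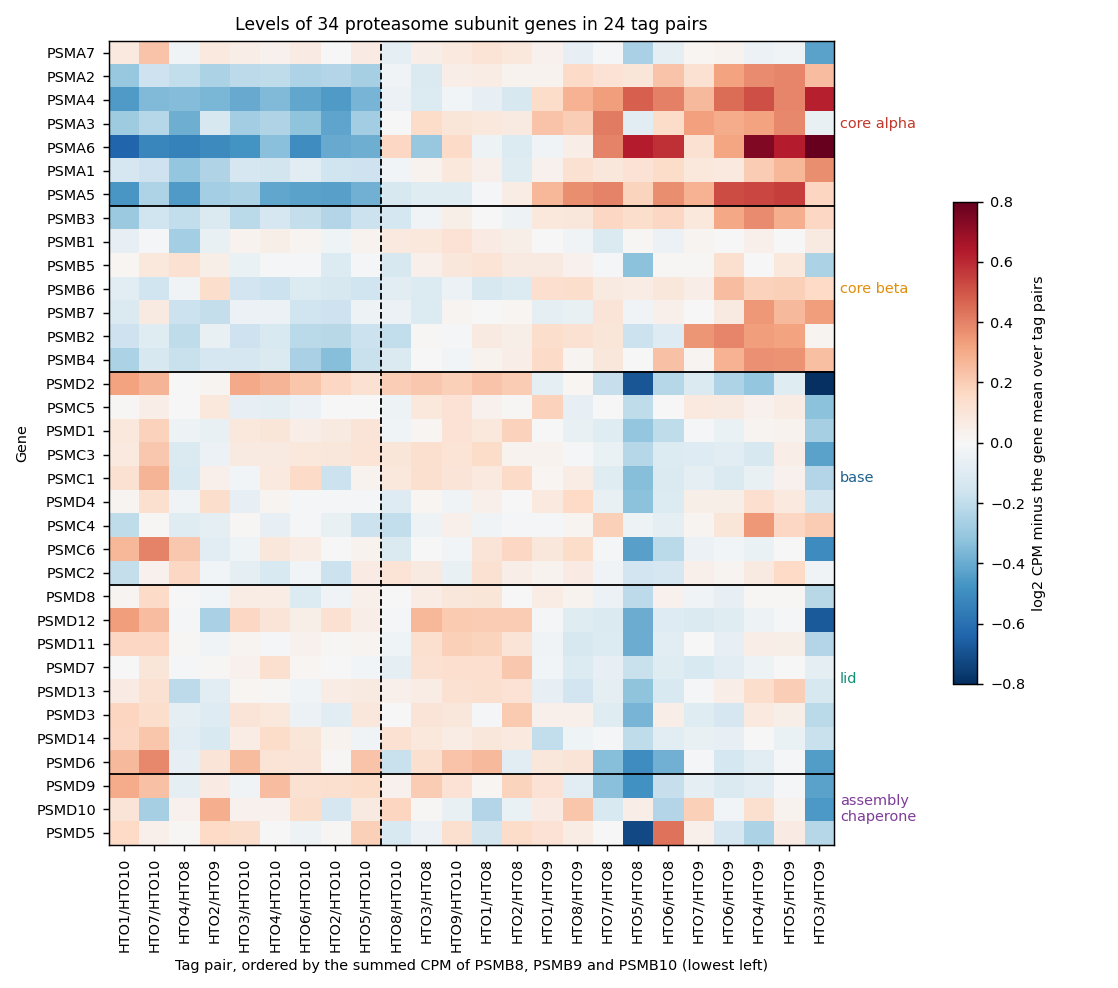
Level of each of 34 members (rows, by subunit group) in each of 24 tag pairs (columns, ordered by the summed level of PSMB8, PSMB9 and PSMB10), as log2 CPM minus the gene's mean over pairs, red above and blue below it. Core alpha genes other than PSMA7 and PSMA3 turn from blue to red from left to right, and PSMA3 is below its mean in HTO5/HTO8 and HTO3/HTO9. Most base and lid genes are blue in these 2 pairs, and the dashed line marks the gap between 257 and 488 CPM of inducible level.

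The catalytic subunits PSMB5, PSMB6 and PSMB7 changed little in level, while the levels of their inducible partners changed widely. PSMB5, which carries the chymotrypsin-like activity, ran from 331 CPM in HTO5/HTO8 through a median of 420 to 454 CPM in HTO6/HTO9, or 1.37-fold (1.26 to 1.5). Its lowest levels were in HTO5/HTO8 and HTO3/HTO9 (331 and 349 CPM), and the ratio was 1.19 without both. PSMB6, the caspase-like subunit, ran from 270 CPM in HTO4/HTO10 through a median of 296 to 361 CPM in HTO6/HTO9, or 1.34-fold (1.22 to 1.47). PSMB7, the trypsin-like subunit, ran from 243 CPM in HTO2/HTO9 through a median of 270 to 352 CPM in HTO4/HTO9, or 1.45-fold (1.32 to 1.59). The partners' ratios were 10.5 for PSMB8, 24.4 for PSMB9 and 3.68 for PSMB10.

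PSMB8 made up 10.7% of PSMB5 and PSMB8 UMIs in HTO1/HTO10 (exact binomial 95% interval 9.23 to 12.4) and 60.3% in HTO3/HTO9 (58.2 to 62.4), with a median of 27.7% and more than 50% in 4 pairs. PSMB9 made up 10.0% of PSMB6 and PSMB9 UMIs in HTO2/HTO9 (8.38 to 11.8) and 72.8% in HTO3/HTO9 (71.2 to 74.4), with a median of 45.9% and more than 50% in 10 pairs. PSMB10 ran from 22.4% of PSMB7 and PSMB10 UMIs in HTO4/HTO10 (20.1 to 24.9) to 46.2% in HTO5/HTO9 (44.2 to 48.3), and exceeded 50% in 0 pairs. These shares are of captured RNA and do not measure assembled subunits. The sum of both partners varied 1.95-fold for PSMB5 and PSMB8, 3.96-fold for PSMB6 and PSMB9 and 1.87-fold for PSMB7 and PSMB10. In HTO3/HTO9, PSMB6 stood at 340 CPM beside 912 CPM of PSMB9, and in HTO2/HTO9, with the lowest PSMB9 level, PSMB6 stood at 336 CPM beside 37.4 CPM. HTO2/HTO9 held the most PSMB6 of the 9 pairs with the lowest inducible level. The rest of these held 270 CPM (HTO4/HTO10) to 299 CPM (HTO4/HTO8). PSMB5 stood at 349 CPM where the PSMB8 share was highest and 421 CPM where it was lowest.

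**Figure D3:**
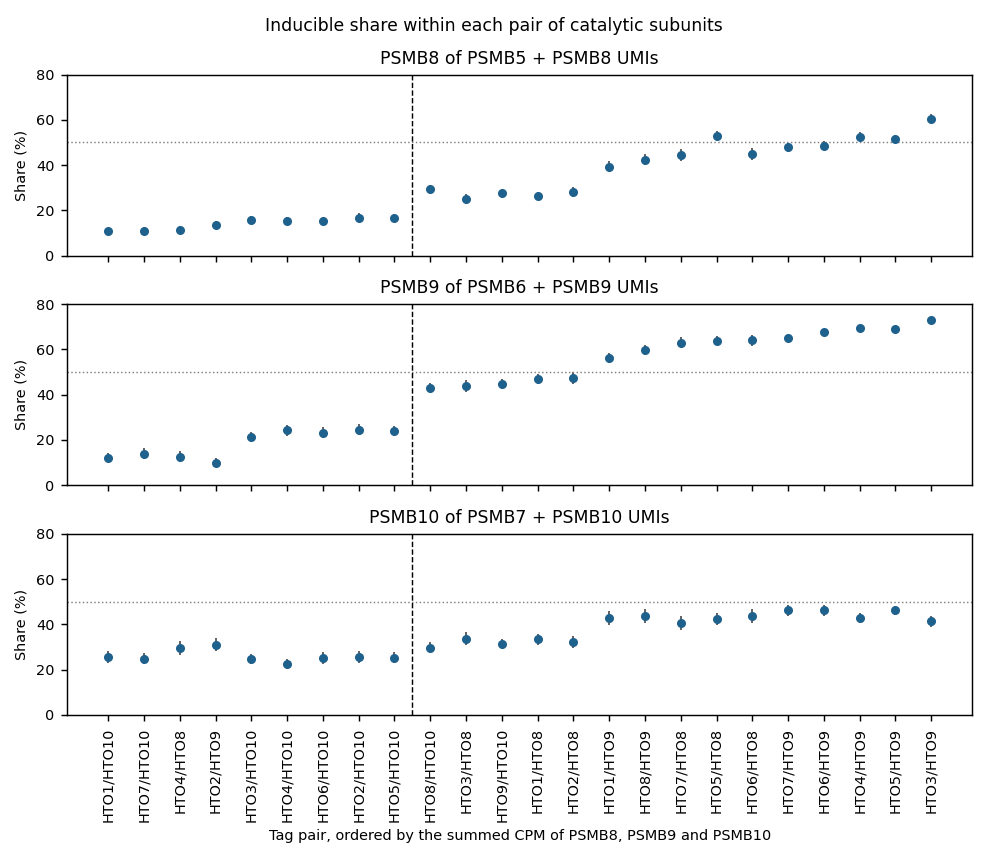
Percentage of UMIs from the inducible subunit in each pair of partners (PSMB8 of PSMB5 and PSMB8, PSMB9 of PSMB6 and PSMB9, PSMB10 of PSMB7 and PSMB10) for 24 tag pairs ordered by summed inducible level, with exact 95% binomial intervals. PSMB9 reaches 72.8%, PSMB8 60.3% and PSMB10 46.2%, and the dotted line marks 50%.

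Base genes were lowest in HTO3/HTO9 and HTO5/HTO8. Their summed level was 1793 CPM in HTO3/HTO9 and 1827 CPM in HTO5/HTO8, and ran up to 2629 CPM in HTO7/HTO10, or 1.47-fold, which fell to 1.24 without both pairs. PSMD2 (chromosome 3: 184298709 to 184309054), a large scaffold subunit that binds ubiquitin-like domains and the base gene with the highest mean, ran from 336 CPM in HTO3/HTO9 through a median of 623 to 738 CPM in HTO1/HTO10, or 2.20-fold (2.03 to 2.38). HTO5/HTO8 was next lowest at 368 CPM, and the ratio was 1.54 without both. PSMC6, an ATPase, ran from 72.0 to 134 CPM, or 1.87-fold (1.56 to 2.24), with its lowest level in HTO3/HTO9 and its highest in HTO7/HTO10. PSMC2, the least abundant ATPase, had the narrowest range of all members, 73.0 to 93.2 CPM, or 1.28-fold (1.06 to 1.54) and a variance between pairs of 1.30 times the Poisson expectation. PSMC4 ran against the rest of the base: it was highest in HTO4/HTO9 (179 CPM) and HTO3/HTO9 (162 CPM) and lowest in HTO1/HTO10 (122 CPM); it is named for that value and was chosen after it was seen.

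Lid genes followed the base. All 8 had their lowest level in HTO3/HTO9 or HTO5/HTO8, as did 7 of 9 base genes, 3 of 3 chaperone genes, 1 of 7 alpha genes and 1 of 7 beta genes. In total 20 of 34 members were lowest there, against 45.8% of all genes. PSMD12, a lid scaffold subunit, ran from 181 CPM in HTO3/HTO9 through a median of 286 to 364 CPM in HTO1/HTO10, or 2.01-fold (1.80 to 2.25), which fell to 1.51 without both pairs. PSMD8, the most abundant lid gene, ran only from 309 to 400 CPM (1.30, interval 1.18 to 1.42) and PSMD7 from 222 to 291 CPM (1.31, interval 1.18 to 1.46). PSMD6, the least abundant, ran from 39.6 to 72.9 CPM, or 1.84-fold (1.45 to 2.35), and could share reads with its antisense neighbours. The summed lid level was 1522 CPM in HTO5/HTO8 and 1574 CPM in HTO3/HTO9, up to 2111 CPM in HTO7/HTO10, and its ratio fell from 1.39 to 1.19 without both pairs. Scaling by the median of ratios, which raised the levels of HTO5/HTO8 by 0.12 on the log2 scale, left a ratio of 1.27 for the lid and 1.35 for the base. Chaperone genes were far lower, with a summed level of 99.7 to 154 CPM. PSMD9 was the most abundant of them (57.5 to 98.7 CPM, ratio 1.72, interval 1.41 to 2.09) and PSMD5 the least (14.9 to 33.3 CPM, ratio 2.23, interval 1.49 to 3.39).

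The balance between core and regulatory particle RNA does not depend on how pairs are scaled, since both sums come from the same cells. Core alpha UMIs were 1.25 times base UMIs in HTO1/HTO10 (95% interval 1.22 to 1.29) and 2.44 times in HTO3/HTO9 (2.35 to 2.52), a 1.94-fold difference. HTO4/HTO9, the highest pair after leaving out HTO3/HTO9 and HTO5/HTO8, stood at 2.06, which is 1.64 times the lowest ratio. The beta to base ratio ran from 0.887 to 1.46. Within the particles the proportions were steadier: the lid to base ratio stayed between 0.757 and 0.878 and the alpha to beta ratio between 1.38 and 1.68.

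**Figure D4:**
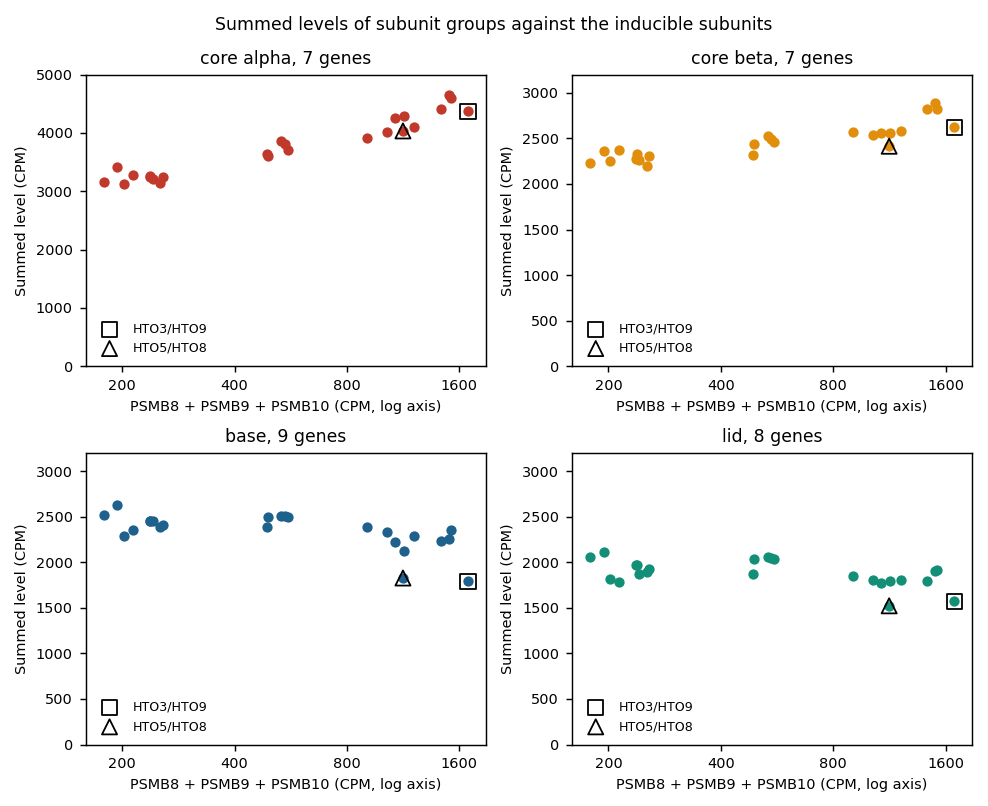
Summed CPM of the core alpha, core beta, base and lid genes (linear axes from 0) against the summed CPM of PSMB8, PSMB9 and PSMB10 (log axis) for 24 tag pairs, 1 point per pair. Alpha sums are 3117 to 3421 CPM in the 9 pairs with the least inducible RNA and 3599 to 4647 CPM in the other 15, and HTO3/HTO9 (square) and HTO5/HTO8 (triangle) have the lowest base and lid sums.

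The inducible level fell into 2 ranges with a gap between them, 178 to 257 CPM in 9 pairs and 488 to 1688 CPM in 15 pairs, so relations to it were taken within each range. The points are cultures of 1 line in 1 pool that differ in dose and time, and the correlations are descriptions. Over the 15 higher pairs, the log2 inducible level went with the alpha sum at r = 0.92 (Spearman rho 0.94) and with the beta sum at 0.75 (rho 0.82), and ran against the base sum at -0.66 (rho -0.74) and the lid sum at -0.65 (rho -0.53). Without the 2 pairs farthest from the median these were 0.89, 0.65, -0.64 and -0.65. Over the 9 lower pairs, r was -0.09 for alpha, -0.10 for beta, -0.32 for base and -0.34 for lid. Without the 2 farthest of these it was 0.18, -0.26, 0.72 and 0.69, so the signs for alpha, base and lid rest on those pairs. The sum over all members had r of 0.30 over the 15 pairs, 0.69 without HTO3/HTO9 and HTO5/HTO8, 0.62 with the median of ratios and 0.53 in CPM outside mitochondrial genes.

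By single members, r reached 0.7 for 8 of 34 over the 15 pairs, against 5.48% of all genes, and these were 5 alpha and 3 beta genes: PSMA4 (0.96), PSMB6 (0.92), PSMB3 (0.87), PSMA5 (0.86), PSMA2 (0.85), PSMA6 (0.78), PSMB4 (0.77) and PSMA1 (0.77). It was -0.7 or below for 5 of 34, against 10.9% of all genes, and these were 3 base and 2 lid genes: PSMD2 (-0.80), PSMC3 (-0.75), PSMD14 (-0.73), PSMD12 (-0.72) and PSMC1 (-0.72). This count was 2, both base genes, with TMM scaling and 3 in CPM outside mitochondrial genes. In CPM it is not far from the share over all genes. The median r was -0.27 for members and -0.26 for all genes. By group it was 0.78 for alpha, 0.68 for beta, -0.43 for base and -0.56 for lid genes. Of the catalytic subunits, PSMB6 had r of 0.92, PSMB7 0.68 and PSMB5 -0.25. The sign for PSMB5 rests on HTO3/HTO9 and HTO5/HTO8, without which its r was 0.12. Of the members with an ISRE-like motif shown above, PSMA4 had the highest r of all members and PSMB4 had 0.77, whereas PSMA6 reached 0.78 without such a motif in its windows.

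Markers of other processes moved with the groups. The summed level of 14 proliferation genes went with the base sum at r = 0.94 over 24 pairs (rho 0.90; 0.86 without HTO3/HTO9 and HTO5/HTO8) and with the lid sum at 0.81 (rho 0.77; 0.60 without both), and ran against the alpha sum at -0.61 (rho -0.74). The median mitochondrial share ran against the base sum at -0.91 and the lid sum at -0.84, and went with the alpha sum at 0.68. Heat shock genes went with the base sum at 0.87, or 0.61 without both pairs. Among the members, PSMD2 and PSMA7 followed the proliferation genes most closely, each at r = 0.93. Their part in the levels of the members was not tested, and supernatant dose, exposure time and the state of the cells cannot be told apart here.

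**Figure D5:**
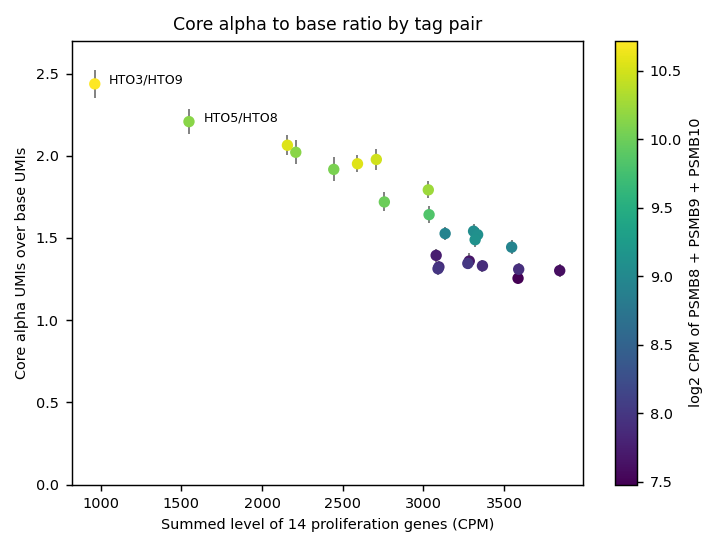
Ratio of core alpha to base UMIs in 24 tag pairs (bars, 95% interval of counting error) against the summed CPM of 14 proliferation genes, coloured by the log2 inducible level. The ratio is 2.44 in HTO3/HTO9, the pair with the lowest proliferation level, and 1.25 in HTO1/HTO10.

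The genes around the proteasome were taken from 3 lists, which hold regulators and assembly factors, ubiquitin supply and shuttling genes, and activators of subunit genes. The activator list holds transcription factors and also KEAP1, NGLY1 and SYVN1, which are not transcription factors. Of the regulators and assembly factors, 11 of 17 at the minimum level ranged at least 1.5-fold and 4 at least 2-fold, against 72.6% and 26.1% of all genes. PSME2 and PSME1, subunits of the interferon-induced cap, ran from 222 to 1455 CPM (6.55, interval 5.98 to 7.19) and from 153 to 751 CPM (4.92, interval 4.46 to 5.44), both highest in HTO3/HTO9. UCHL5, a proteasome-bound deubiquitinase, ran from 34.0 to 88.0 CPM and PSMG1, a core assembly chaperone, from 37.3 to 88.6 CPM, both lowest in HTO5/HTO8 and highest in HTO1/HTO10, where PSMD2 and PSMD12 were also highest. Their ratios, 2.59 and 2.37, were 1.35 and 1.89 without HTO3/HTO9 and HTO5/HTO8. POMP, the maturation factor of the core particle, was as abundant as PSMA7 at a mean of 1054 CPM and ran from 836 to 1362 CPM, highest in HTO4/HTO9 like the alpha and beta sums.

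Of the ubiquitin supply and shuttling genes, 7 of 15 ranged at least 1.5-fold and 2 at least 2-fold, against the same 72.6% and 26.1%. SQSTM1, an autophagy receptor that also binds ubiquitin, ran from 514 to 1309 CPM and ZFAND2A, a stress-induced proteasome adaptor, from 32.0 to 88.4 CPM, both highest in HTO3/HTO9. ZFAND5 ran from 36.8 to 80.8 CPM and the ubiquitin-activating enzyme UBA6 from 37.3 to 74.3 CPM. The ubiquitin fusion gene RPS27A had the highest mean of this list, 4431 CPM, and the smallest ratio, 1.14.

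Of the activator list, 8 of 9 genes at the minimum level ranged at least 1.5-fold and 3 at least 2-fold, against 72.6% and 26.1% of all genes. KEAP1 and NGLY1 are among these 9, with ranges of 1.45-fold and 1.55-fold. NFE2L1, the factor best known for restoring subunit transcription, ran from 50.8 CPM in HTO4/HTO10 through a median of 62.7 to 212 CPM in HTO3/HTO9, or 4.17-fold (3.51 to 4.97), which was 1.82 without HTO3/HTO9 and HTO5/HTO8. NFE2L2 ran from 73.4 to 166 CPM and NFE2L3 from 221 to 464 CPM, and both were highest in HTO3/HTO9. STAT3 ran from 45.6 to 101 CPM and was highest in HTO1/HTO8. HTO3/HTO9, with the highest NFE2L1 level, was also extreme in depth and mitochondrial share, and a link between NFE2L1 and the members was not tested. Of the members with an ARE-like motif shown above, PSMD12 and PSMC5 were lowest in HTO3/HTO9 and PSMA4 was highest there. PSMB3 stood there above its level in 19 of the other pairs. Of those with the motif not shown, PSMD3 (185 CPM) and PSMD9 (59.7 CPM) were lower only in HTO5/HTO8. PSMD5 (21.1 CPM) stood above its level in only 2 pairs.

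The 5298 assigned cells all held member UMIs. Free RNA in droplets also gives UMIs, and its share was not measured here. The cells held a median of 139.5 member UMIs (5th to 95th percentile 65.9 to 244), or 1.05% of a cell's UMIs. After thinning 5261 cells to 3000 UMIs each, PSMA7 was seen in 94.5% of cells (99.8% unthinned) and PSMA2 in 88.4% (99.6%), while PSMD5 was seen in 6.98% (27.9%) and PSMD10 in 6.82% (28.7%). The variance over cells was a median of 1.24 times the Poisson expectation for members (1.19 within pairs) against 1.10 (1.08) for all genes. PSMA6 and PSMA4 had ratios of 2.13 and 1.82 over all cells but 1.33 and 1.32 within pairs. PSMA7 and PSMB3 kept ratios of 1.96 and 1.95 within pairs.

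Barcodes that failed the filters on cells also carried a tag pair in 2899 cases, with a median mitochondrial share of 57.7%. Among their UMIs outside mitochondrial genes, the members' summed level was lower than in the kept cells of the same pair in 24 of 24 pairs, with a median ratio of 0.854. The median ratio was 0.906 for alpha, 0.809 for beta, 0.843 for base and 0.780 for lid genes.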

How the data were processed

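The authors deposited 1 matrix of UMI counts for 36602 genes and 10 hashtags in 10660 distinct barcodes. Per the file headers, version 5.0.1 of Cell Ranger wrote it, whereas version 2.1.1 and the build GRCh38 stand in the submitters' processing notes. For the annotation, the strand setting and the map from tags to conditions, nothing is given in the sources used here. The deposited matrix is not split by library, so barcodes shared between libraries could not be counted.

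A minimum of 1000 genes and a maximum of 20% mitochondrial UMIs left 6408 barcodes, and 5298 were assigned to 1 of 24 tag pairs, where both top tags had at least 3 times the counts of the next tag and the pair was on top in at least 100 barcodes. No doublet caller was run: the tag margin removes barcodes with 3 or more strong tags, not doublets of 1 pair. Counts of the cells of a pair were summed and divided by their total to give CPM (Python 3.11.15, numpy 2.4.6, scipy 1.17.1, pandas 2.3.3). Ranges used log2(CPM + 10) for genes whose mean reached 20 CPM. Intervals of 95% are conditional binomial for ratios and exact binomial for shares, and cover counting error only. They do not allow for picking the highest and lowest of 24 pairs. PSMD10, with a variance between pairs of 1.01 times the Poisson expectation, thus had an interval of 1.18 to 2.42. A measure was split where its widest gap exceeded 25% of its range with at least 2 pairs on each side.

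Members named in the text are PSMB5, PSMB6 and PSMB7, the 8 widest and 4 narrowest ranges, the highest and lowest mean of each group, genes without UMIs, and the members at each r threshold; from the 3 lists, the 4 widest ranges and 2 highest means, of which 1 is not reported here, nor is 1 of the motifs searched. The members and lists were chosen with earlier results of these data known. The gap rule, the r threshold of 0.7, the ratio of alpha to base, the promoter motifs and the members named in the KRT81 cells were chosen after the data were seen. Functions were tested on simulated data. Alternatives changed the filters, the tag margin, the pseudocount, the minimum level and the scaling (edgeR 4.0.16 TMM, used for scaling only, and a median of ratios). Coordinates of genes are from GENCODE 29 on GRCh38.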

Additional observations from a re-analysis of the deposited data

How the results depend on the processing

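The ratio of highest to lowest summed level became 1.26 for all members, 1.39 for the base and 1.33 for the lid in CPM outside mitochondrial genes; 1.34 for all members, 1.63 for alpha and 1.40 for beta with TMM; and 1.37, 1.65, 1.42, 1.35 (base) and 1.27 (lid) with the median of ratios. Cells thinned to 3000 UMIs gave a beta ratio of 1.36, a highest PSMB8 share of 63.8% and a median variance between pairs of 2.32 times Poisson, which falls with the number of UMIs. Cells of 2000 genes or more with up to 10% mitochondrial UMIs gave 5 members at 2-fold, a base ratio of 1.39, highest shares of 57.1% (PSMB8) and 74.5% (PSMB9), a variance of 2.35 times Poisson and an alpha to base difference of 1.85-fold. A pseudocount of 1 gave 6 members at 2-fold and one of 50 gave 10 at 1.5-fold. Without HTO3/HTO9 and HTO5/HTO8, an alternative chosen after seeing the data, the values were 1 member at 2-fold, 10 at 1.5-fold, ratios of 1.24 (base) and 1.19 (lid), shares of 52.5% (PSMB8) and 69.3% (PSMB9), a variance of 3.35 times Poisson and an alpha to base difference of 1.64-fold. The causes of these shifts were not tested. Leaving out each pair in turn gave 1 to 3 members at 2-fold, 14 to 17 at 1.5-fold, ratios of 1.21 to 1.23 (all members), 1.48 to 1.49 (alpha), 1.29 to 1.31 (beta), 1.40 to 1.47 (base) and 1.34 to 1.39 (lid), highest shares of 52.9% to 60.3% (PSMB8), 69.3% to 72.8% (PSMB9) and 46.1% to 46.2% (PSMB10), a variance of 4.43 to 6.37 times Poisson, an r of 0.18 to 0.45 between the sum of all members and the inducible level (0.69 without HTO3/HTO9 and HTO5/HTO8, 0.62 with the median of ratios, 0.53 in CPM outside mitochondrial genes) and an alpha to base difference of 1.76 to 1.94-fold. Of 34 members, 17 were lowest in HTO3/HTO9 or HTO5/HTO8 with TMM or the median of ratios, against 20 in CPM; r of -0.7 or below held for 2 members with TMM against 5, while r of 0.7 or more held for 9 or 10 members under the other scalings against 8. Signs of r that changed without pairs were those of PSMB5 over the 15 higher pairs (-0.25 to 0.12) and, over the 9 lower pairs, of alpha (-0.09 to 0.18), base (-0.32 to 0.72), lid (-0.34 to 0.69), all members (-0.29 to 0.49) and PSMB7 (-0.09 to 0.52). No paired analysis was possible because no label ties a tag pair to a replicate or a condition. With 1 culture a condition, biological spread is unknown, and low-level genes such as PSMD5 and PSMD10 are limited by counting.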
